A study of Mus musculus with 8 samples.

Results

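The genes for proteins of the large subunit of the cytosolic ribosome were followed in sorted mouse myeloid progenitors. Members were taken by symbol, as Rpl followed by a number with an optional letter and digit (Rplp0, Rplp1 and Rplp2 included, pseudogene symbols excluded) and at least 100 counts summed over all 8 libraries. The table listed 33435 genes, 50 symbols had this form and 48 reached 100 counts. Of the 2 below it, Rpl3l had 2 counts, both in Trim27 replicate 4, and Rpl10l had 0 counts in every library. All 48 members passed the filter on low counts, so none is left out of what follows. The symbols were matched without use of expression differences, but the family was chosen with earlier results of these libraries known.

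The comparison set 4 libraries labelled as Trim27-overexpressing against 4 control libraries. Hematopoietic stem and progenitor cells came from fetal livers of C57BL/6J mice at embryonic day E14.5 and were infected with a Trim27 virus or with a GFP control virus. Myeloid progenitors were then sorted, so both groups carry a virus and differ in its insert. The promoter driving the insert, the time between infection and sorting, and whether replicate libraries stem from separate animals or infections are items not given in the sources used here. Each p-value therefore reflects library-to-library spread alone, and that spread may be purely technical.

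The Trim27 libraries held 10551137 to 16366571 counts and 12962 to 13283 detected genes, and the GFP libraries 9257889 to 10747794 counts and 11131 to 11850 detected genes. Trim27 itself, a ubiquitin ligase of the tripartite motif family, averaged 293 ± 18.4 CPM in the Trim27 group and 181 ± 8.52 CPM in the GFP group (SD, n = 4 each), and its fitted log2 fold change was 0.70 (SE 0.0540). Every CPM given here is on the TMM-scaled library size. Trim27 replicate 1 stood apart within its group: set against each other Trim27 library, its counts gave a chi-square of 6.38 to 10.5 per degree of freedom, whereas every other pair of libraries within a group lay between 2.60 and 4.93. Most of the transcriptome differed between the groups. With the quasi-likelihood test of edgeR and Benjamini-Hochberg adjustment, 85.5% of 11040 genes tested passed an adjusted p of 0.05, with 5249 higher and 4193 lower in the Trim27 group, and 6277 higher and 3106 lower when libraries were scaled by total count alone. All tested genes had a median log2 fold change of 0.44 under that choice, against 0.14 under TMM. A count of members past the threshold has to be read against that background.

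The large subunit carries the peptidyl transferase center, where amino acids are joined, and the tunnel through which the new chain leaves. Its proteins are made in near-equal amounts and built onto ribosomal RNA in the nucleolus, and their mRNAs begin with a terminal oligopyrimidine (TOP) tract through which growth signalling controls their translation. Blood formation is sensitive to their dosage: in humans, loss of 1 copy of any of several of these genes causes Diamond-Blackfan anemia, in which red cell precursors fail.

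Start regions are shown for the member that rose, for the lowest member, for 3 further members with some of the largest falls or a role discussed here, and for 1 gene of the particle that carries the smallest ribosomal RNA. RefSeq promoter entries (GRCm38.p6) matched 36 of the 48 members, with 42 entries in all. Each line gives 70 bases before to 30 bases from the annotated start, 5′ to 3′ on the gene's strand, with the longest run of C and T in capitals. The annotated start is not a start measured in these cells.
Rpl4: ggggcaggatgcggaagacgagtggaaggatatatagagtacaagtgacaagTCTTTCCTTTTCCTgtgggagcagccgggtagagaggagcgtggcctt
Rpl39l: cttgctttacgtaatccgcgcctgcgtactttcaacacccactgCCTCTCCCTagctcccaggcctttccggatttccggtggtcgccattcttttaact
Rpl37a: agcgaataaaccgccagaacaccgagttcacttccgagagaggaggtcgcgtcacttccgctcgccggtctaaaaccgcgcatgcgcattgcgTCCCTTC
Rpl38: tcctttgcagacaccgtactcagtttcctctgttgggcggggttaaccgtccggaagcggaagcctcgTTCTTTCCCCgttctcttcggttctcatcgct
Rplp2: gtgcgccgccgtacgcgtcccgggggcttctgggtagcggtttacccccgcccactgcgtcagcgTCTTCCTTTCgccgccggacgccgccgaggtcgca
Rpl5: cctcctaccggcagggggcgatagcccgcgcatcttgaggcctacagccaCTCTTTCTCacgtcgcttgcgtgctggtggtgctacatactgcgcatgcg
These windows lie at chr9:64173317-64173416 (Rpl4), chr16:10170158-10170257 (Rpl39l), chr1:72711190-72711289 (Rpl37a), chr11:114668510-114668609 (Rpl38), chr7:141447581-141447680 (Rplp2) and chr5:107900458-107900557 (Rpl5), all on the plus strand. The run spans the start in Rpl38, where it begins at position -2, and in Rplp2, where it begins at -5, whereas in Rpl4 it begins at -18 and ends before the start. A run of at least 8 pyrimidines was found in 27 of the 42 member windows (64.3%), against 36.4% of all 32851 promoter entries, and the median longest run was 10 bases in members and 7 in all. The letters CCGGAAG, or their reverse complement CTTCCGG, which itself begins with pyrimidines, stood within the 300-base promoter (250 bases before the start, 50 from it) of 15 of the 42 entries (35.7%), against 8.86% of all. These matches describe letters only. In the other 4 printed windows, Rpl4 and Rpl37a among them, the longest run does not cross the start.

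The mRNAs of the large subunit took a smaller part of the library in the Trim27 group. They made up 10.5%, 10.9%, 10.6% and 10.4% of all counts in Trim27 replicates 1 to 4, against 14.4%, 14.4%, 14.3% and 14.4% in GFP replicates 1 to 4. The groups did not overlap, and the gap was far wider than the spread within either. The means were 10.6% ± 0.214 and 14.4% ± 0.0476 (SD, n = 4 each), which puts the Trim27 share at 0.737 of the GFP share. Against counts outside the ribosomal protein genes, the members had 13.1 ± 0.322 counts per 100 in the Trim27 group and 19.7 ± 0.0780 in the GFP group. The gap was wider for the small subunit, with 37 genes, 33 of them with an annotated coding sequence. Its genes took 8.42% ± 0.148 of counts in the Trim27 group and 12.5% ± 0.0419 in the GFP group (a Trim27 share of 0.672 of the GFP share). The ratio of large to small subunit counts was 1.26 ± 0.00944 with Trim27 and 1.15 ± 0.00563 with GFP. A share is a sum over members and was given no test. It also falls when counts of other genes rise, and counts give no amount per cell. In bulk samples, fewer cells rich in these mRNAs, less of these mRNAs per cell and more of other mRNAs cannot be told apart.

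**Figure D1:**
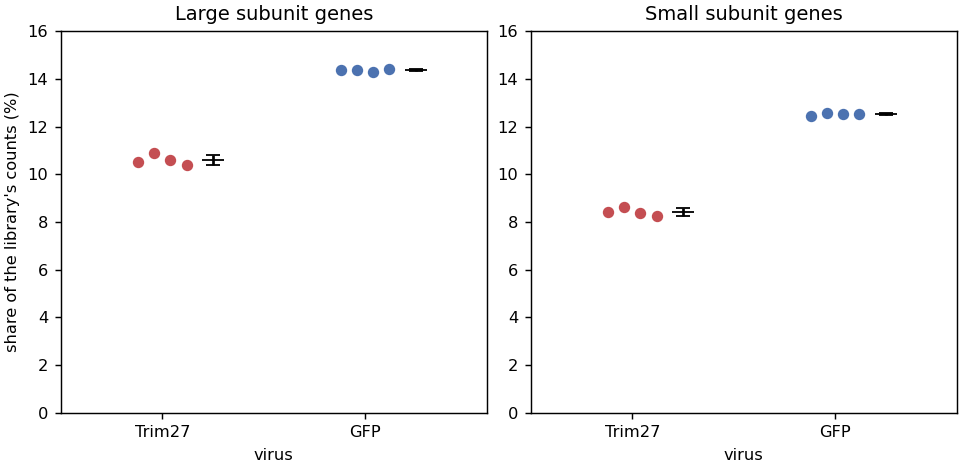
Share of each library's counts (percent) in the large subunit genes (left) and the small subunit genes (right), for the 4 Trim27 and the 4 GFP libraries, with points for libraries and bars for the group mean ± SD. On the left the Trim27 libraries sit between 10.4% and 10.9%, all below the GFP libraries at 14.3% to 14.4%.

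Of the 48 members, 47 fell and 1, Rpl4, rose. Among all genes tested, 38% were called lower and 47.5% higher. The groups did not overlap for any of the 48: for 47 every Trim27 library was below every GFP library, a pattern seen in 35.4% of all genes tested, and for Rpl4 every Trim27 library was above, as in 45.3% of all genes. The median log2 fold change of the members was -0.87, beside 0.14 for all tested genes. Log2 fold changes ran from -1.78 for Rpl39l to 0.12 for Rpl4, and 17 members had fallen to less than 50% of the GFP level, where 16% of all genes tested were called and at least 2-fold lower. The members lie on 17 chromosomes, with at most 6 on the same one. The size of the fall depended on how libraries were scaled and on gene length: the members' median was -0.56 when libraries were scaled by total count alone (46 fell, Rpl4 rose and Rpl3 did not pass), and -0.28 when each library's trend with transcript length among other abundant genes was removed (37 fell and 3, Rpl4, Rpl10 and Rpl27, rose). Both settings give smaller falls.

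**Figure D2:**
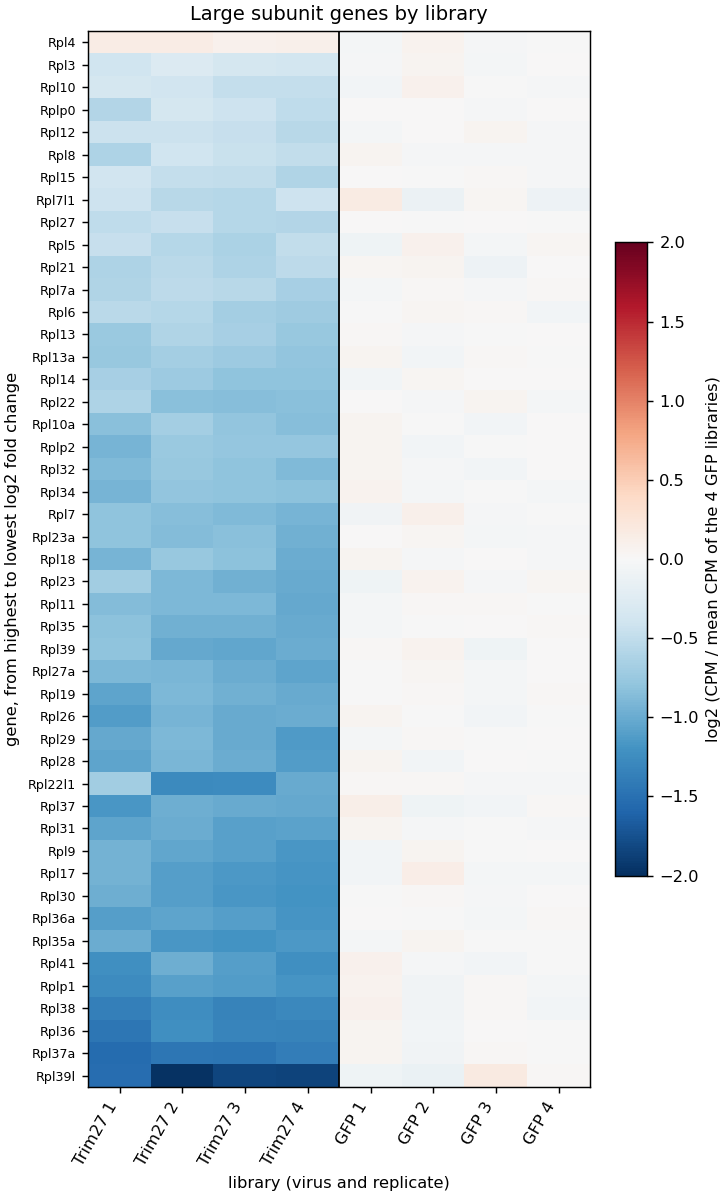
Log2 ratio of each member's CPM in each library to its mean CPM in the 4 GFP libraries (color), with Trim27 libraries left of GFP libraries and 47 of the 48 members ordered by log2 fold change from the highest at the top. All members shown but Rpl4 are lower in all Trim27 libraries, and the contrast is strongest at the bottom, for Rpl39l and Rpl37a.

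The stalk that recruits the translation factors with GTPase activity is built from Rplp0, which anchors it, dimers of Rplp1 and Rplp2, and Rpl12 at its base. All 4 fell, but by unequal amounts, and the call for Rpl12 was lost with the coding-length trend of other abundant genes removed (-0.06, edgeR adjusted p = 0.119). Rplp1 had 7139, 8007, 7834 and 7541 CPM in the Trim27 libraries and 17957, 16296, 17355 and 16710 CPM in the GFP libraries. Each Trim27 value was below the lowest GFP value by a wide margin, and the log2 fold change was -1.16 (SE 0.0435, edgeR adjusted p = 4.88e-20). Rplp2 averaged 2235 ± 128 CPM with Trim27 and 3901 ± 122 CPM with GFP (log2 fold change -0.80). Rplp0, the member with the most counts, had 10471, 12266, 11786 and 11121 CPM in the Trim27 libraries and 15834, 15817, 15436 and 15836 CPM in the GFP libraries, a log2 fold change of -0.46 (SE 0.0436, edgeR adjusted p = 5.62e-11). The Trim27 libraries again all lay below, Trim27 replicate 1 lowest. Rpl12 averaged 3591 CPM with Trim27 and 4972 CPM with GFP, with a log2 fold change of -0.47. Per kilobase of coding sequence, Rplp1 mRNA stood at 22311 CPM in the Trim27 group and 49939 CPM in the GFP group, Rplp0 at 11999 and 16541 CPM, and Rplp2 at 6480 and 11308 CPM, in the same order of groups. The level of Rplp1 per length was thus above that of its anchor in both groups, by less with Trim27. Rplp1 has 342 coding bases and Rplp0 has 951, and the part of length in the narrower gap was not tested.

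Rpl5 and Rpl11 join the smallest ribosomal RNA in a particle that docks on the growing subunit and, when free, binds and inhibits the p53 ligase Mdm2. Rpl5 had 5217, 4875, 4668 and 5128 CPM in the Trim27 libraries, against 6785, 7630, 7026 and 7427 CPM in the GFP libraries. Rpl11 had 888, 863, 862 and 794 CPM in the Trim27 libraries, against 1569, 1644, 1632 and 1601 CPM in the GFP libraries. Neither gene overlapped between the groups, and Rpl11 fell further. Their log2 fold changes were -0.54 (SE 0.0451, edgeR adjusted p = 4.48e-12) for Rpl5 and -0.92 (SE 0.0443, edgeR adjusted p = 1.38e-17) for Rpl11. Human genes for both are mutated in Diamond-Blackfan anemia, as are those for Rpl15, Rpl18, Rpl26, Rpl27, Rpl31, Rpl35 and Rpl35a. All 9 genes of this list fell, with a median log2 fold change of -0.92 and a range from -1.12 for Rpl35a to -0.49 for Rpl15, and 8 fell with the transcript-length trend of other abundant genes removed, where Rpl27 rose. The list was near the whole family, in which 47 of 48 members fell with a median of -0.87. Among all genes tested, 38% were called lower. Rpl35a, the lowest, had 473, 421, 412 and 426 CPM with Trim27 and 919, 981, 938 and 938 CPM with GFP. The small subunit gene most often mutated in that disease, Rps19, also fell, with a log2 fold change of -1.22.

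Rpl3, Rpl8 and Rpl10 reach toward the peptidyl transferase center and the transfer RNA sites, and their log2 fold changes were among the 6 nearest to 0. Rpl3 had 1552, 1704, 1610 and 1588 CPM in the Trim27 libraries, against 2018, 2136, 1996 and 2071 CPM in the GFP libraries. It fell to 0.785 of the GFP level (log2 fold change -0.35, SE 0.0431, edgeR adjusted p = 1.42e-08), and by total-count scaling its log2 fold change was -0.05 (adjusted p = 0.258). Rpl8, which also sits near the center, averaged 8628 ± 562 CPM with Trim27 and 12071 ± 340 CPM with GFP (log2 fold change -0.48). Rpl10, which joins late in assembly, averaged 1983 CPM with Trim27 and 2646 CPM with GFP (log2 fold change -0.42). None of the 3 kept its fall once the transcript-length trend of other abundant genes was removed: Rpl3 was at -0.05 (edgeR adjusted p = 0.224) and Rpl8 at 0.01, and Rpl10 rose, at 0.19. All 3 fell with the coding-length trend of those other genes removed (median -0.27). With the transcript-length trend of all tested genes removed, 2 of the 3 fell (median -0.19).

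Rpl4, whose long loop lines a narrow point of the exit tunnel, was the single member that was higher with Trim27. It had 4629, 4653, 4432 and 4489 CPM in the Trim27 libraries and 4078, 4376, 4133 and 4144 CPM in the GFP libraries. The lowest Trim27 library was only just above GFP replicate 2. The log2 fold change was 0.12 (SE 0.0406, edgeR adjusted p = 0.00696), and the call was lost without Trim27 replicate 2 (0.08, adjusted p = 0.0947), replicate 3 (0.10, adjusted p = 0.059) or replicate 4 (0.10, adjusted p = 0.0505). What held more firmly was its distance from the rest of the family: Rpl4 was 4.77% ± 0.150 of the large subunit counts in the Trim27 group and 2.62% ± 0.0887 in the GFP group. The other 7 proteins at the tunnel or its mouth are Rpl17, Rpl19, Rpl23a, Rpl26, Rpl31, Rpl35 and Rpl39, and all 7 fell, from -1.09 for Rpl17 to -0.86 for Rpl23a. With the transcript-length trend of other abundant genes removed, 6 of the 8 tunnel genes fell and 1, Rpl4, rose (median -0.26). Rpl19, for example, averaged 3186 CPM in the Trim27 group and 6281 CPM in the GFP group, a log2 fold change of -0.98. Rpl10a, the protein of the mobile stalk at the exit site, fell by 0.79 on the log2 scale, and by 0.08 (adjusted p = 0.054) with the transcript-length trend of other abundant genes removed. Rpl10a was called lower with the coding-length trend of those other genes removed (-0.54). It was also called lower with the transcript-length trend of all tested genes removed (-0.30).

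The deepest falls belonged to genes of very small proteins. Rpl37a, a zinc-finger protein, had 208, 223, 220 and 234 CPM in the Trim27 libraries, against 628, 577, 619 and 605 CPM in the GFP libraries. No Trim27 library reached 50% of any GFP library, and the log2 fold change was -1.46 (SE 0.0491, edgeR adjusted p = 5.48e-21). Rpl36 averaged 1455 ± 89.1 CPM with Trim27 and 3650 ± 121 CPM with GFP (log2 fold change -1.33). Rpl38, mutated in the Tail-short mouse with its skeletal patterning defects, averaged 517 ± 19.1 CPM with Trim27 and 1280 ± 61.7 CPM with GFP (log2 fold change -1.31). Each lay far below its GFP values in every Trim27 library. Rpl41, the smallest ribosomal protein, averaged 1317 ± 112 CPM with Trim27 and 2880 ± 123 CPM with GFP (log2 fold change -1.13). Rpl36a, which contacts the exit site for transfer RNA, averaged 519 CPM with Trim27 and 1121 CPM with GFP (log2 fold change -1.11), and Rpl36al, an expressed copy of it outside the symbol rule, had a log2 fold change of -0.57.

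The remaining members all fell as well. Of the 23 genes put in none of the groups above by role, the paralogs aside, the median log2 fold change was -0.88, from -1.46 for Rpl37a to -0.57 for Rpl21. Rpl30, Rpl9, Rpl37, Rpl28 and Rpl29 had log2 fold changes between -1.10 and -1.01. Rpl27a, Rpl23, Rpl34 and Rpl32 lay between -0.97 and -0.83. Rpl14, Rpl13a, Rpl13, Rpl6, Rpl7a and Rpl21 lay between -0.75 and -0.57. Rpl13a, known in human monocytes as a translational silencer once released from the ribosome, averaged 3505 CPM with Trim27 and 5846 CPM with GFP (log2 fold change -0.74).

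To see which members departed from the family, the test was run again over the whole table with the summed counts of the members as library size, a scaling that no other gene enters. Relative to the large subunit total, 41 of 48 members differed between the groups, 14 higher and 27 lower in the Trim27 group. Under this scaling 86.5% of all 11040 genes tested were called, 70.4% of them higher and 16.1% lower as shares of the tested genes. The share of members called was near that of all genes, so the number called is no trait of the family. Because members were scaled to their own sum, some come out higher where others come out lower. Scaling by the median ratio over the members instead gave 35 that differed, 17 higher and 18 lower. Rpl4 was the highest at 0.87 (SE 0.0349), followed by Rpl3 (0.39), Rpl10 (0.33), Rplp0 (0.28), Rpl12 (0.27) and Rpl8 (0.26). Rpl39l was the lowest at -1.04, followed by Rpl37a (-0.71), Rpl36 (-0.58), Rpl38 (-0.56), Rplp1 (-0.42) and Rpl41 (-0.39). Within the P stalk, Rplp0 and Rpl12 were higher, Rplp1 was lower and Rplp2 did not pass (-0.06, edgeR adjusted p = 0.143). All 3 genes near the transferase center were higher, and of the tunnel genes 6 were lower, Rpl4 was higher and Rpl23a did not pass. Members that did not pass were Rpl13, Rpl13a, Rpl14, Rpl22, Rpl10a, Rplp2 and Rpl23a, with values from -0.12 to 0.05. Single libraries decided some of the smaller shifts: Rpl22 passed without Trim27 replicate 1 (-0.10) and Rplp2 without Trim27 replicate 4 (-0.08), Rpl7 was lost without GFP replicate 2 (-0.08), and Rpl22l1 was lost without GFP replicate 2 (-0.28) or Trim27 replicate 2 (-0.20) or 3 (-0.22). The order of the most abundant mRNAs also differed: Rplp0 made up 11.9% ± 0.519 of large subunit counts with Trim27 and 9.84% ± 0.0873 with GFP, Rpl8 9.04% ± 0.401 with Trim27 and 7.55% ± 0.154 with GFP, and Rplp1 7.99% ± 0.241 with Trim27 and 10.7% ± 0.423 with GFP.

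**Figure D3:**
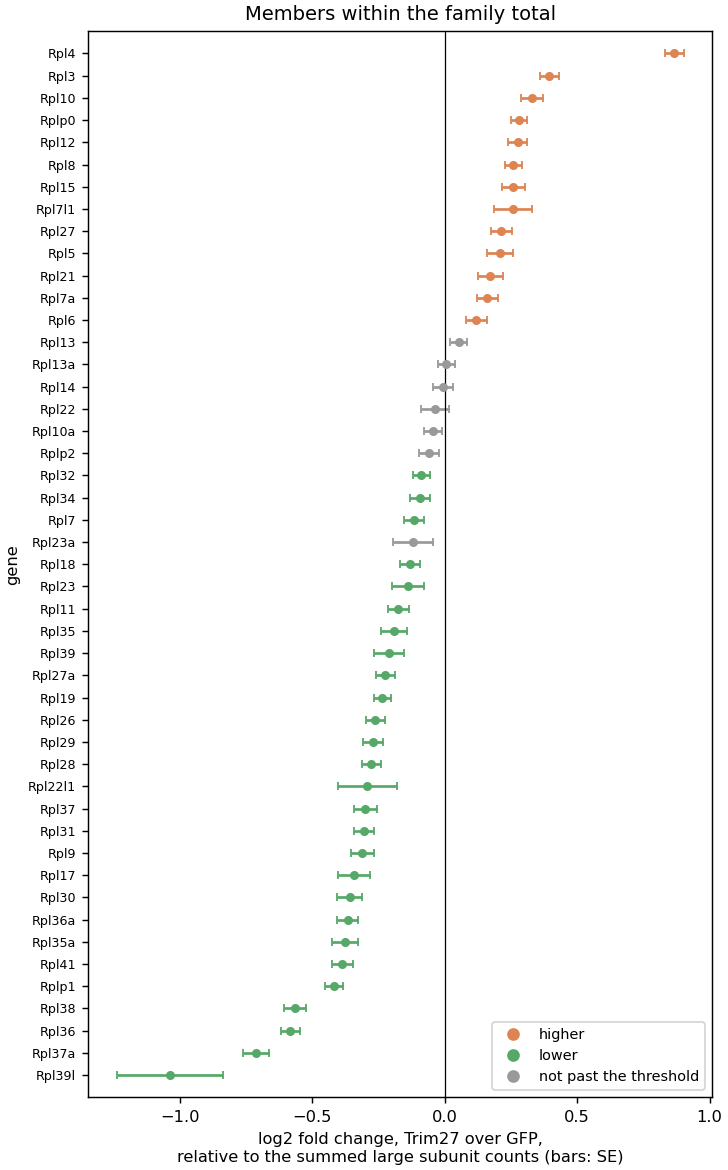
Log2 fold change (Trim27 over GFP) of 47 of the 48 members relative to the summed counts of the large subunit genes, ordered by value, with bars for the SE of the fit and color for members called higher, lower or neither. Rpl4 stands at 0.87 and Rpl39l at -1.04, and the other 45 members shown run from Rpl37a at -0.71 to Rpl3 at 0.39.

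The order of the members followed the length of their coding sequence. Coding lengths were taken from the GRCm38 annotation by symbol and were available for all 48. The 17 members with a coding sequence under 400 bases had a median log2 fold change of -1.10, the 16 from 400 to 600 bases one of -0.90, the 12 from 600 to 900 bases one of -0.60, and the 3 from 900 to 1300 bases (Rplp0, Rpl3 and Rpl4) one of -0.35. Rpl3 and Rpl4 have the longest coding sequences of the family, 1209 and 1257 bases. Across the 48 genes, which share the same libraries and scaling, the log2 fold change had a Spearman correlation of 0.769 with coding length, and of 0.754 without Rpl4. With mean log2 CPM the correlation was 0.312. The 17 short members took 19.5%, 20.0%, 20.2% and 20.4% of large subunit counts in the Trim27 libraries, against 26.3%, 24.6%, 25.7% and 25.3% in the GFP libraries. The 15 members of 600 bases or more took 53.8%, 53.7%, 53.6% and 53.9% in the Trim27 libraries, against 45.7%, 47.1%, 46.2% and 46.5% in the GFP libraries. Neither part overlapped between the groups, and within the family the counts lay more on long genes with Trim27.

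The same direction was seen outside the family. The 33 small subunit genes with an annotated coding sequence had a Spearman correlation of 0.522 with coding length. Among 410 other genes of at least 8 log2 CPM and coding sequences under 1300 bases, it was 0.373, and 69.3% of them fell, with a median of -0.37. Binned by the same lengths, these other abundant genes had medians of -0.81, -0.56, -0.27 and -0.23 from short to long, and the members' medians were lower in each bin. The part that length has in the members' fall was not tested beyond the length trends removed above and 2 more. The first was the transcript-length trend of all tested genes, a trend the members themselves enter. With it removed 45 members fell and 0 rose (Rpl4, Rpl10 and Rpl27 did not pass), with a median of -0.51. With the coding-length trend of abundant other genes removed 45 fell and Rpl4 rose (Rpl12 and Rpl27 did not pass), with a median of -0.44.

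**Figure D4:**
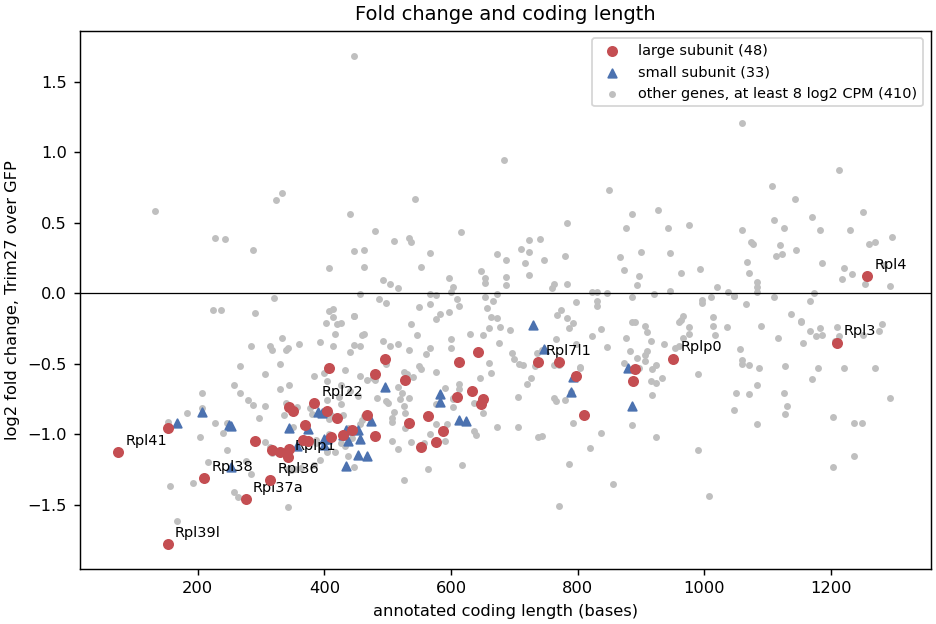
Log2 fold change (Trim27 over GFP) against annotated coding length in bases for the 48 large subunit genes (circles), 33 small subunit genes (triangles) and 410 other genes of at least 8 log2 CPM (grey). Large subunit genes run from a median of -1.10 under 400 bases to 0.12 for Rpl4 at 1257 bases.

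Several members have an expressed paralog, and the ratio of paralog to parent counts within a library needs no scaling for library size. For 3 pairs both genes were members. Counts of Rpl39l, expressed mainly in testis in mice, were 1.18%, 1.0%, 1.11% and 1.07% of those of Rpl39 in the Trim27 libraries and 1.80%, 1.69%, 2.34% and 1.97% in the GFP libraries. Every Trim27 value was lower, with a log2 ratio difference of -0.82. Counts of Rpl22l1, whose expression Rpl22 represses in mice, were 12.2%, 9.46%, 9.69% and 11.4% of those of Rpl22 in the Trim27 libraries and 12.9%, 13.3%, 12.2% and 12.9% in the GFP libraries. The Trim27 values were lower, with Trim27 replicate 1 almost touching GFP replicate 3, and the log2 ratio differed by -0.27. Counts of Rpl7l1 were 2.18%, 2.04%, 2.06% and 2.37% of those of Rpl7 in the Trim27 libraries and 1.95%, 1.44%, 1.74% and 1.56% in the GFP libraries. Here the Trim27 values were higher, by 0.38 on the log2 scale. For each of the 3 pairs the two-sided exact permutation test gave p = 0.0286, the smallest that 4 against 4 libraries allow, and 0.0286 after adjustment over the 3 pairs. These ratios keep any trend with length, whose part was not tested. Annotated transcripts have 805 bases for Rpl39l and 612 for Rpl39, 552 for Rpl22l1 and 2051 for Rpl22, and 2606 for Rpl7l1 and 1163 for Rpl7. Coding lengths are 153 bases for both of the first pair, 366 and 384 for the second, and 738 and 810 for the third. In CPM all 3 paralogs fell: Rpl39l averaged 2.75 ± 0.389 CPM with Trim27 and 9.49 ± 0.956 CPM with GFP, Rpl22l1 53.8 ± 10.5 and 110.6 ± 2.08 CPM, and Rpl7l1 78.4 and 110 CPM, in the same order of groups. With the transcript-length trend of other abundant genes removed, the call for Rpl22l1 was lost (-0.17, edgeR adjusted p = 0.137). All 3 paralogs fell with the coding-length trend of those other genes removed, and with the transcript-length trend of all tested genes removed. The parents fell too, Rpl39 to 252 CPM with Trim27 against 489 CPM with GFP, Rpl22 to 501 against 862 CPM, and Rpl7 to 3633 against 6601 CPM.

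**Figure D5:**
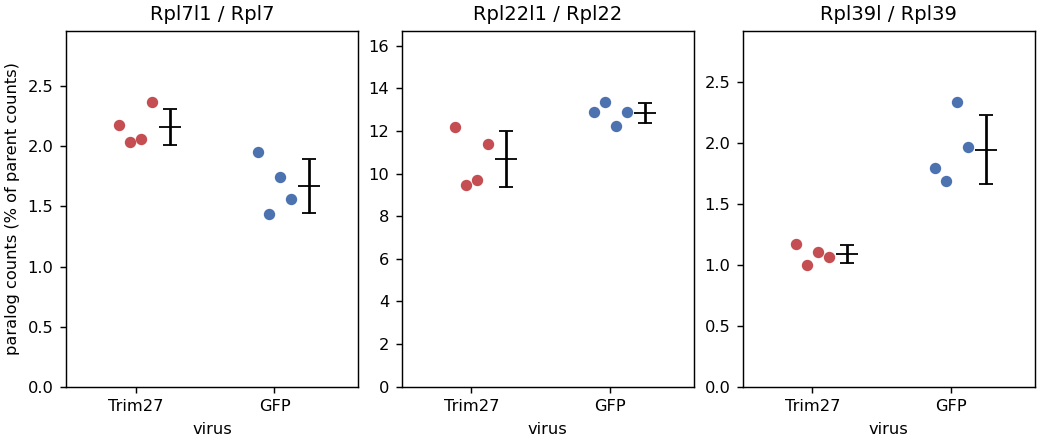
Counts of each paralog as a percent of those of its parent gene in the 4 Trim27 and the 4 GFP libraries, with points for libraries and bars for the group mean ± SD. Rpl39l and Rpl22l1 are lower with Trim27 and Rpl7l1 is higher, with no overlap between the groups.

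Reads of these genes can be shared with near-identical copies and with genes on the other strand. The table listed 122 pseudogene symbols of large subunit genes, of which 114 had counts and 65 were tested. Of these 65, 56 fell and 1 rose (11 fell and 13 rose with the transcript-length trend of other abundant genes removed), and 40 lay within 0.25 log2 units of their parent. As a share of the parent's counts the pseudogenes were mostly small, but Rpl14-ps1 reached 28.5%, Rpl17-ps10 18.8%, Rpl38-ps2 17.2%, Rpl28-ps1 14.6%, Rpl3-ps1 14.5%, Rpl34-ps1 11.8% and Rpl21-ps8 10.2%, and Rpl23a-ps3 held 167% of the counts of Rpl23a itself. Levels of these parents, Rpl23a above all, are therefore uncertain, and all pseudogene symbols together took 0.296% of counts with Trim27 and 0.428% with GFP. In the GRCm38 annotation, exons of 14 members overlap exons of another gene, and 12 of them those of a gene on the opposite strand. Small RNA genes and overlaps within introns were left out of this count. Whether counting used strand is not given in the sources used here. Tlcd1 had 5909 counts over all libraries beside 4402 for Rpl23a, and Arpc5l had 23506 beside 34452 for Rpl35. For the other overlapping genes in the table the neighbor held fewer than 10% of the member's counts.

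Genes that act with the large subunit were described by the same test. All 37 small subunit genes fell (median -0.91), among them Rps27 (-1.23) and Rps20 (-1.08). The 33 with an annotated coding sequence, which leaves out copies such as Rps3a2, Rps3a3 and Rps4l, had a median of -0.94. With the transcript-length trend of other abundant genes removed, 25 of the 37 fell and 5 rose. With the coding-length trend of those other genes removed, 31 of 33 fell and 0 rose. With the transcript-length trend of all tested genes removed, 33 of 37 fell and 0 rose. Of 47 genes for large subunit proteins of the mitochondrial ribosome, 38 fell, 4 rose and 5 did not pass (median -0.61), with 32 down and 9 up under total-count scaling. Of 17 other genes with TOP mRNAs, 11 fell, 5 rose and 1 did not pass (median -0.36), but 7 fell and 7 rose under total-count scaling, the poly(A)-binding protein gene Pabpc1 rising (0.72) and the elongation factor subunit gene Eef1d falling (-0.88). Of 37 genes for factors that assemble the large subunit, 20 were higher and 13 lower with Trim27 and the other 4 missed the threshold (median 0.17). With the transcript-length trend of all tested genes removed, 13 were up and 18 down of 35. With that of other abundant genes removed, 20 were up and 11 down of 35. Under total-count scaling 25 were up and 7 down of 37. Rrs1, which brings the Rpl5 and Rpl11 particle to the pre-ribosome, rose by 1.45 with 45.9 ± 2.13 CPM in the Trim27 group and 16.8 ± 0.966 CPM in the GFP group. The helicase gene Ddx51 rose by 5.30, with 44.9 ± 1.12 CPM with Trim27 and 1.14 ± 0.384 CPM with GFP. These shares of assembly genes, 54.1% higher and 35.1% lower, lie near the 47.5% and 38% of all genes tested, and no difference between the lists was tested.

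Markers of lineages differed between the groups together with the members. Summed over their lists, erythroid markers were at 696 to 852 CPM in the Trim27 libraries and 1310 to 1368 CPM in the GFP libraries (4 of 5 fell), and myeloid progenitor markers at 2110 to 2331 CPM and 1961 to 2070 CPM in the same order, although 7 of 8 fell and Csf2rb rose (4 fell and 2 rose under total-count scaling). Megakaryocyte markers were at 717 to 742 CPM with Trim27 and 840 to 922 CPM with GFP, where 2 of 4 rose and 2 fell. Mast cell and basophil markers were at 207 to 222 CPM with Trim27 and 113 to 125 CPM with GFP, and all 3 tested rose. T and NK cell markers were at 113 to 117 CPM with Trim27 and 46.2 to 56.9 CPM with GFP, but of the 2 tested Gzmb rose and Lck fell. B cell markers were at 31.5 to 44.8 CPM with Trim27 and 43.0 to 120 CPM with GFP (4 of 6 fell), and macrophage markers at 15.1 to 17.7 and 3.09 to 6.94 CPM in the same order, where 1 of 2 tested rose. Hepatocyte markers were at 14.9 to 16.4 CPM with Trim27 and 1.20 to 1.70 CPM with GFP, with 3 of 6 at 0 in every library and both tested members higher, and endothelial and stromal markers at 28.1 to 28.8 and 28.8 to 37.1 CPM, with 3 of 6 at 0 and, of the 2 tested, Col1a2 higher and Pecam1 lower (its direction turned under total-count scaling). Their part in the fall of the large subunit genes was not tested.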

How the data were processed

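The authors deposited raw counts per gene symbol in 1 table, each library in a column of its own. PolyA RNA was reverse transcribed and libraries were made with the Nextera XT kit, per the labels' protocols. Per the submitters' processing notes, bcl2fastq, HISAT2 and featureCounts were used with build NCBIM37. Their versions, the strand setting and the handling of multi-mapping reads were not given in the sources used here. Of counts from 1 to 10, 64.7% to 72.0% were even, so both reads of a pair may have been counted, and intervals from counts cover counting error only. The table's 1 unnamed line held 0 counts and was left out.

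The counts went into edgeR 4.0.16 under R 4.3.3, with filterByExpr (minimum count 10, minimum total 15), TMM scaling, and the two-sided quasi-likelihood test without covariates, with p-values adjusted after Benjamini-Hochberg over the 11040 genes that passed the filter and called at 0.05. Family-relative changes used the members' summed counts as library size in the same test. Paralog ratios used log2 of counts with 0.5 added and an exact permutation test (scipy 1.17.1). Scripts were tested on simulated data. In the simulation for the edgeR fit few genes changed, as many up as down, unlike these data. It therefore does not bear on scaling where most genes differ. Alternatives used other scalings and filters, DESeq2 1.42.0, limma 3.58.1, the replicate number as a block and each library left out; length trends fitted on abundant other genes were added after seeing the data.

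Lengths and names come from the GRCm38 annotation by symbol; no gene coordinates were carried between builds. Named genes were the 8 members with the lowest and the 8 with the highest log2 fold change, any that rose or did not pass, the P stalk, the 5S particle, paralogs and parents, Trim27, and up to 3 of each other list by smallest p, of which some are given only in list counts or are not reported here; 1 member enters counts and medians but is not shown by name. Members, lists and rules were chosen with earlier results of these data known.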

Additional observations from a re-analysis of the deposited data

Results flagged for a closer look

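Among 106 groups of 4 libraries examined for a library far from the other 3, 7 stood out, and chance alone gives about 1 in 20 groups. In the Trim27 group, replicate 1 was low for Rplp2 at 2045 CPM, with the nearest library at 2282 CPM, and high for Rpl22 at 559 CPM, with the nearest at 484 CPM. In the GFP group, replicate 1 was high for Rpl8 at 12579 CPM, with the nearest library at 11930 CPM, and for Rpl31 at 1590 CPM, with the nearest at 1521 CPM. GFP replicate 2 was high for Rpl17 at 269.5 CPM, with the nearest at 240.5 CPM, and GFP replicate 3 was low for Rplp0 at 15436 CPM, with the nearest at 15817 CPM. The share of counts in small subunit genes was lowest in GFP replicate 1 at 12.46%, with the nearest library at 12.54%. For none of these 6 genes did the odd library close the gap between the groups.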

How the results depend on the processing

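Leaving out each library gave 47 members that fell each time, 0 to 1 that rose, 9352 to 9529 genes called, a median of -0.91 to -0.86 and a share difference of -3.88 to -3.72 percentage points. The members' median of -0.87 became -0.56 under total-count scaling, -0.63 with only genes of at least 6 log2 CPM, -0.51 with the length trend removed, and -0.28 and -0.44 with the transcript-length and coding-length trends of abundant other genes removed. Members that rose numbered 0 with the length trend removed and 3 with the transcript-length trend of abundant genes removed. The share difference of -3.79 points became -6.59 per 100 counts outside ribosomal protein genes. A filter of 10 CPM in 4 libraries left 3453 genes called higher, and genes of at least 6 log2 CPM gave 2270 called, 1145 higher and 1125 lower, since fewer genes were tested. Against a fold change of 1.5, 2452 genes were lower, 34 members fell and 0 rose. Direction turned for Pecam1 under total-count scaling (0.00568), for Rpl10 (0.19) and Rpl8 (0.00778) with the transcript-length trend of abundant genes removed, and for Rpl36al (0.0339) with their coding-length trend removed. Relative to the family it turned for Rpl22 (0.0874), Rpl7 (0.00807) and Rplp2 (0.0684) under the median of ratios, for Rpl22 (0.0239) and Rplp2 (0.000810) against the total of both subunits, and for Rpl22 without Trim27 replicate 2 (leaving out each library gave -0.105 to 0.00147). Causes were not tested.

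Same-numbered libraries of both groups did not deviate together (correlations of -0.03 to 0.02). Whether they share more than a number is not given in the sources used here. With the replicate number as a block, 9160 genes were called (5133 higher, 4027 lower), 47 members fell and 1 rose, and 39 members differed relative to the family. The paralog differences under the block were 0.38 for Rpl7l1, -0.27 for Rpl22l1 and -0.82 for Rpl39l, each with an exact adjusted p of 0.125, the smallest that 4 pairs allow. Without each library they were 0.31 to 0.45, -0.34 to -0.22 and -0.89 to -0.73, with an exact permutation p of 0.0571, the smallest that 3 against 4 allow. Depth does not limit the members, apart from Rpl39l, which has few counts.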
